A study of Danio rerio with 8 samples.

Results

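The expression of 5 genes of red blood cell development and of the GATA transcription factor family was followed in fluorescent cells sorted from zebrafish embryos and in whole embryos. The genes were chosen by name, as gata1a (ENSDARG00000013477), gata2a (ENSDARG00000059327), gata2b (ENSDARG00000009094), alas2 (ENSDARG00000038643) and slc4a1a (ENSDARG00000012881), out of 35117 annotated genes. The choice was made with earlier results of these data known. All 5 had reads in each of the 8 libraries, and all 5 passed the filter on low counts in every comparison. Sorted cells came from Tg(fli1a:EGFP) embryos, in which the promoter of fli1a drives a green fluorescent protein. This promoter is active in endothelium, in part of the blood lineage and in neural crest derived cells of the jaw, so the sorted fraction is a mixture.

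RNA was available from 20000 sorted EGFP positive cells of run 2, with 1 RNA per isolation kit (RNeasy plus micro and RNAqueous micro) and libraries a and b of each RNA, from 20000 sorted cells of run 1, with 1 RNA and 1 library per kit, and from 1 whole, unsorted embryo per kit. The labels give an age of 3 days for all sorted cells and of 5 days for the embryos, so the effects of sorting and of age cannot be told apart. All sorted samples came from the same pool of fish, and the cDNA of run 2 sorted cells had more amplification cycles than that of run 1 sorted cells and of the embryos, which were sequenced in run 2. Sorting used scatter and EGFP, without an antibody for any blood cell, and p-values measured only the spread between samples, which may be technical.

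Each library held between 10763174 and 19537939 reads on genes, and levels are given in CPM, counts scaled to the same total of gene reads in every library. At this depth 3 reads corresponded to 0.154 to 0.279 CPM. Poisson intervals (95%) cover counting error only, since the reads carry no molecular identifiers. All 9 matched endothelial marker genes were higher in run 2 sorted cells than in whole embryos (23.5% of all tested genes were), 7 of them without the RNAqueous RNA of run 2 and at least 8 under the other alternatives, with a summed level of 358 to 457 CPM in run 2 sorted cells, 285 to 337 CPM in run 1 sorted cells and 81.3 to 113 CPM in whole embryos. The summed level of 2 cartilage genes was 7847 to 9511 CPM in run 2 sorted cells, 4136 to 4955 CPM in run 1 sorted cells and 578 to 676 CPM in embryos. That of 4 myeloid genes was 857 to 1246 CPM (run 2), 1086 to 2813 CPM (run 1) and 52.0 to 93.9 CPM (embryos). In sorted cells most of this sum was lyz, which averaged 872 CPM in run 2 and 1840 CPM in run 1. Of the 4 genes, 3 were called higher in each sorted group. csf1ra went the other way, with means of 2.08 CPM in run 2, 0.614 CPM in run 1 and 2.81 CPM in embryos. It was called lower in run 1 (edgeR adjusted p = 0.0498) but not in run 2 (edgeR adjusted p = 0.393). Of 6 genes listed for neurons, 5 were called lower than in embryos in run 2 sorted cells and 4 in run 1. Of all tested genes, 28.2% and 25.5% were called lower. The list includes tal1 and gata3, which are also read below as a blood regulator and a GATA factor. The summed level of the 6 genes was 254 to 302 CPM in run 2, 142 to 320 CPM in run 1 and 598 to 1140 CPM in embryos. The part that these other cells had in the results was not tested.

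As background, GATA factors are zinc finger proteins that bind a short motif named after its core letters GATA. In vertebrate blood development, Gata2 acts early, in stem and progenitor cells and in endothelium, and is replaced by Gata1 at shared sites as red cells mature. Gata1 then drives the genes of heme synthesis, of the globins and of the red cell membrane. The genome of zebrafish holds pairs of gata1 and gata2 genes. Loss of gata1a, alas2 or slc4a1a leads to anemia in zebrafish.

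The level of gata1a, the main transcription factor of red cell differentiation, was highest in sorted cells of run 2. The 4 libraries of run 2 sorted cells held 9.85 and 9.94 CPM (RNeasy) and 9.98 and 9.72 CPM (RNAqueous), those of run 1 sorted cells 6.41 CPM (RNeasy) and 6.30 CPM (RNAqueous), and the whole embryos 3.22 CPM (RNeasy) and 2.76 CPM (RNAqueous). In CPM the 3 groups did not overlap, and the kits gave nearly the same value in both sorted groups. The edgeR fits below scale libraries by further factors. Between the sorted samples these were 0.967 (RNeasy) and 0.816 (RNAqueous) in run 1, and 1.07 and 1.18 in run 2. In that fit gata1a was 1.23-fold higher in run 2 than in run 1 and not called (edgeR adjusted p = 0.736). Of all tested genes, 51.7% were called between run 2 sorted cells and embryos. How many of all genes had groups apart in this way was not counted, here or for the genes below. These levels rest on 115 to 178 reads per library in run 2 sorted cells, 69 and 93 reads in run 1 sorted cells and 63 and 46 reads in the embryos.

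gata2a, a regulator of endothelial and blood precursor genes, had the same order of groups. Run 2 sorted cells held 49.3 and 44.2 CPM (RNeasy) and 51.8 and 55.5 CPM (RNAqueous), run 1 sorted cells 30.4 CPM (RNeasy) and 20.8 CPM (RNAqueous), and whole embryos 12.2 CPM (RNeasy) and 14.8 CPM (RNAqueous). Here too the lowest sorted library, RNAqueous of run 1, was above the highest embryo. Its mean was 49.9 ± 4.77 CPM in run 2 sorted cells, 25.6 ± 6.78 CPM in those of run 1 and 13.5 ± 1.83 CPM in embryos (SD, n = 2 RNA samples each).

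gata2b, which in zebrafish acts in the endothelium that gives rise to blood stem cells, had few reads in the whole embryo libraries. Run 2 sorted cells held 4.61 and 4.30 CPM (RNeasy) and 8.37 and 4.56 CPM (RNAqueous), run 1 sorted cells 8.36 CPM (RNeasy) and 4.81 CPM (RNAqueous), and whole embryos 0.665 CPM (RNeasy) and 0.720 CPM (RNAqueous). The embryo values rest on 13 and 12 reads, whose Poisson intervals reach 1.14 and 1.26 CPM, below every sorted library. The sorted groups overlapped each other. Libraries a and b of the RNAqueous RNA of run 2 differed beyond counting error, since the interval was 7.07 to 9.84 CPM for library a (146 reads) and 3.43 to 5.95 CPM for library b (54 reads). For the other 4 genes the libraries a and b of that RNA were closer to each other, with intervals that overlapped. They held 9.98 and 9.72 CPM for gata1a, 51.8 and 55.5 CPM for gata2a and 89.4 and 81.1 CPM for slc4a1a. For alas2 they held 49.5 and 42.4 CPM, and the intervals of 46.2 to 52.9 and 38.8 to 46.3 CPM barely met. Overlapping intervals do not exclude a difference beyond counting error.

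**Figure D1:**
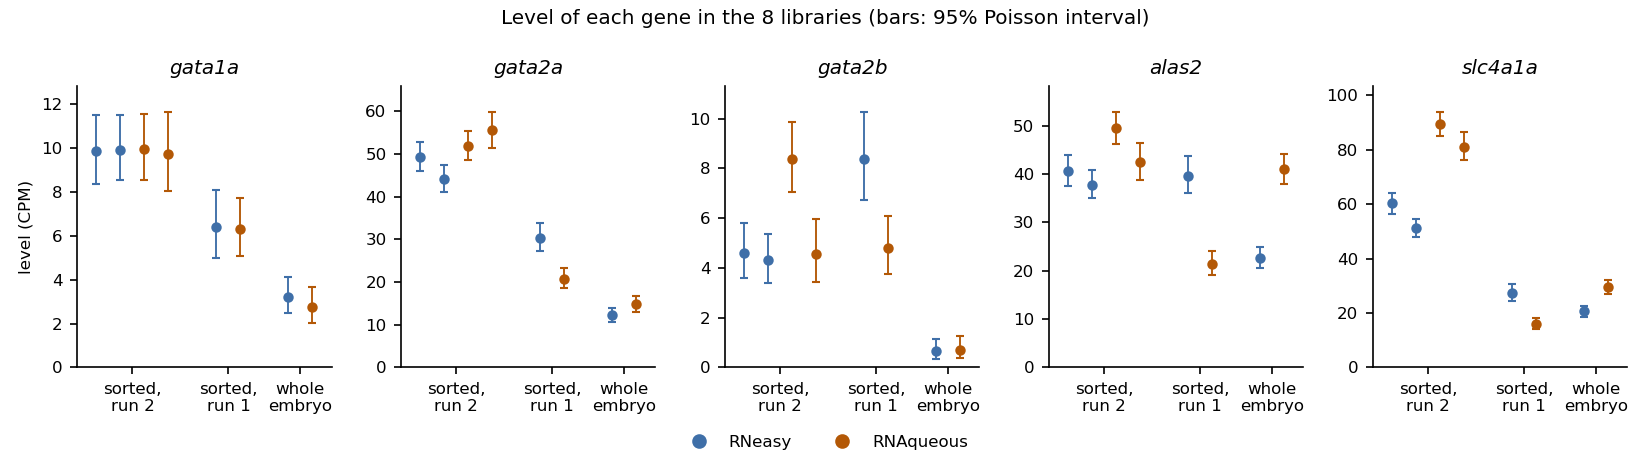
Level (CPM, vertical axis, each panel with its own scale from 0) of the 5 genes in the 8 libraries, grouped as run 2 sorted cells, run 1 sorted cells and whole embryos, with RNeasy in blue and RNAqueous in brown. Points are libraries and bars are 95% Poisson intervals; gata1a, gata2a and gata2b lie above the embryos in every sorted library, slc4a1a only in run 2, and alas2, without reads shared with a neighbouring gene, overlaps between all groups.

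The other 2 genes encode products of the red cell itself. alas2, the erythroid enzyme that starts heme synthesis, held 40.7 and 37.8 CPM (RNeasy) and 49.5 and 42.4 CPM (RNAqueous) in run 2 sorted cells, 39.7 CPM (RNeasy) and 21.5 CPM (RNAqueous) in run 1 sorted cells, and 22.7 CPM (RNeasy) and 41.0 CPM (RNAqueous) in whole embryos. In this count the groups overlapped, and the embryos differed from each other as much as the sorted cells of run 1 did. It leaves out embryo reads that alas2 shares with a neighbouring gene, and with these added the embryos held 58.0 CPM (RNeasy) and 57.8 CPM (RNAqueous), above every sorted library. These totals count every shared read as alas2, and which gene the shared reads came from was not tested.

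slc4a1a, the anion exchanger of the red cell membrane known as band 3, stood out in run 2. Sorted cells of that run held 60.2 and 51.2 CPM (RNeasy) and 89.4 and 81.1 CPM (RNAqueous), those of run 1 held 27.5 CPM (RNeasy) and 16.0 CPM (RNAqueous), and whole embryos held 20.6 CPM (RNeasy) and 29.4 CPM (RNAqueous). All 4 libraries of run 2 lay above the remaining libraries, while run 1 sorted cells and embryos overlapped. In bulk RNA, fewer cells of a type and less RNA per cell cannot be told apart.

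To ask what the fluorescent fraction retained of each gene, the RNA of run 2 sorted cells was tested against that of whole embryos with edgeR's quasi-likelihood method, with Benjamini-Hochberg adjustment over all genes tested. Of the 5 genes, 4 were higher in sorted cells at an adjusted p under 0.05, against a background of 51.7% of 21377 tested genes called in either direction, 23.5% higher and 28.2% lower. The largest difference was that of gata2b, with a log2 fold change of 2.97 ± 0.49 (SE), or 7.83-fold with an interval of 3.75 to 16.4 (edgeR adjusted p = 0.000293). gata2a was 3.61-fold higher (interval 2.33 to 5.59, edgeR adjusted p = 0.000207) and gata1a 3.18-fold (interval 1.80 to 5.64, edgeR adjusted p = 0.00279). slc4a1a was 2.77-fold higher (interval 1.75 to 4.40, edgeR adjusted p = 0.00157), and alas2 was not called, at 1.34-fold with an interval of 0.845 to 2.11 (edgeR adjusted p = 0.270). The calls of gata1a, gata2a and gata2b were kept under all 15 alternatives, and that of slc4a1a under 13. Without the RNAqueous RNA of run 2, slc4a1a had a log2 fold change of 1.19 (edgeR adjusted p = 0.0524) and 5572 genes were called, against 11045, and with sorted cells of both runs in 1 group its log2 fold change was 0.86 (edgeR adjusted p = 0.219).

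Sorted cells of run 1 had as many amplification cycles as the embryos, and were compared with the same embryos, so both comparisons share their whole embryo samples. The background was 42.8% of 20254 tested genes called, 17.3% higher and 25.5% lower, and 3 of the 5 genes were called higher. gata2b was 10.7-fold higher in run 1 sorted cells (interval 4.72 to 24.3, edgeR adjusted p = 0.000392), gata1a 2.45-fold (interval 1.24 to 4.85, edgeR adjusted p = 0.0358) and gata2a 2.18-fold (interval 1.29 to 3.69, edgeR adjusted p = 0.0208). Neither slc4a1a, at 1.00-fold with an interval of 0.585 to 1.72 (edgeR adjusted p = 0.995), nor alas2, at 1.11-fold with an interval of 0.630 to 1.96 (edgeR adjusted p = 0.771), was called. gata1a and gata2a each kept the call under 8 of 12 alternatives. Both lost it when libraries were scaled to total counts without TMM factors (edgeR adjusted p = 0.0985 and 0.0898), which moved the median of all genes to -0.27 and the share of calls that were higher to 31.3%, against 40.5%. Without the RNeasy RNA of run 1 the log2 fold change of gata2a was 0.97 (edgeR adjusted p = 0.0604), and without the RNAqueous RNA gata1a was no longer called (edgeR adjusted p = 0.101). Without the RNAqueous embryo they were 1.14 for gata2a (edgeR adjusted p = 0.125) and 1.07 for gata1a (edgeR adjusted p = 0.208), and without the RNeasy embryo 1.11 (edgeR adjusted p = 0.123) and 1.55 (edgeR adjusted p = 0.0626).

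**Figure D2:**
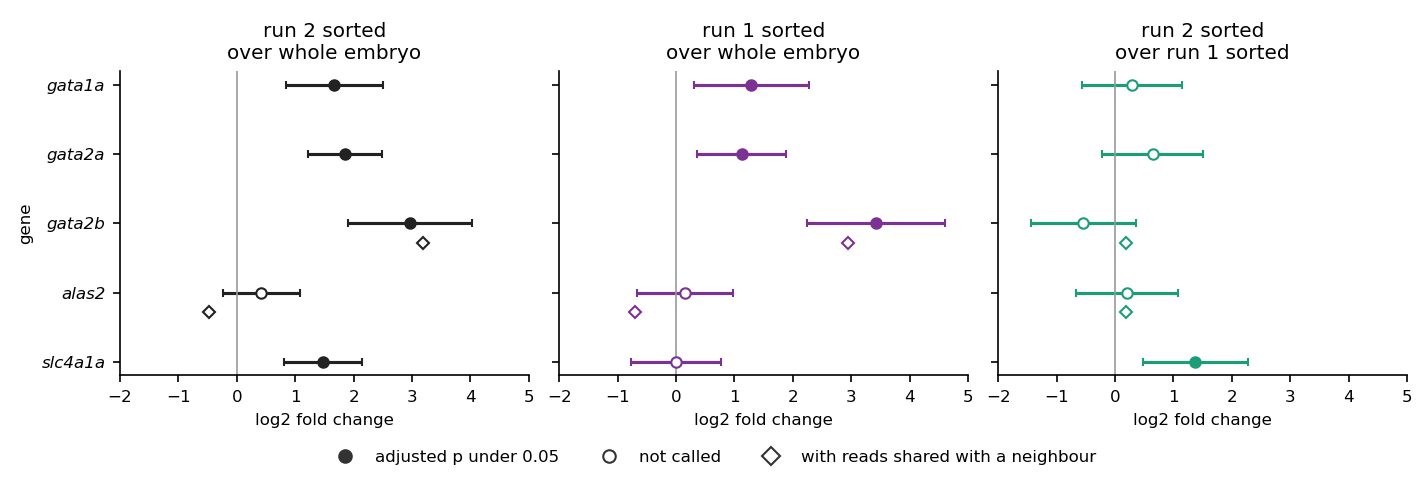
Log2 fold change (horizontal axis) of the 5 genes in run 2 sorted cells over whole embryos, run 1 sorted cells over whole embryos and run 2 over run 1 sorted cells, with 95% intervals of the edgeR fit; filled circles passed an adjusted p of 0.05. Diamonds give the value when reads shared with an overlapping gene were added, which moves alas2 below 0 in both comparisons with embryos and leaves gata2b well above 0 there.

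Between the sorted cells themselves, run 2 was compared with run 1 with kit as a covariate. The background was 10.9% of 19639 tested genes called, and of the 5 genes slc4a1a alone was called, at 2.60-fold higher in run 2 (interval 1.39 to 4.85, edgeR adjusted p = 0.0319). The difference had the same direction within each kit, with 86.0 CPM in run 2 and 16.0 CPM in run 1 for RNAqueous, and 55.4 CPM in run 2 and 27.5 CPM in run 1 for RNeasy. The call was kept under 8 of 13 alternatives. It was not kept by DESeq2 (adjusted p = 0.0723), with shared reads added (edgeR adjusted p = 0.0530), with library b alone (edgeR adjusted p = 0.0882), without the RNAqueous RNA of run 1 (edgeR adjusted p = 0.0919) or without that of run 2 (edgeR adjusted p = 0.366), while the fold change stayed between 1.11 and 1.72 on the log2 scale. Within a library, slc4a1a had 1.35 to 1.91 reads for each alas2 read in run 2 sorted cells, 0.693 and 0.744 in run 1 sorted cells, and 0.907 and 0.716 in whole embryos, a ratio that does not depend on how libraries were scaled. It does depend on the embryo reads that alas2 shares with ela2l, and with these added it was 0.354 and 0.508 in the embryos.

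The other 4 genes were not called between runs. Their log2 fold changes were 0.65 for gata2a (interval -0.22 to 1.51), 0.29 for gata1a (interval -0.56 to 1.15), 0.21 for alas2 (interval -0.66 to 1.07) and -0.55 for gata2b (interval -1.44 to 0.35), so a level that is 2-fold higher in run 2 lay within the intervals of gata2a, gata1a and alas2, and a 2-fold lower one within that of gata2b. Scaling to total counts without the TMM factors shifted the median of all genes between runs to 0.40, and 72.1% of calls were then higher in run 2, against 38.8%. slc4a1a had a log2 fold change of 1.72 under that scaling, above the shifted median. Run, cycles and sort cannot be told apart in this comparison.

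Between kits, with run as a covariate, 0.117% of 19639 tested genes were called by edgeR. None of the 5 genes was among them, with 0 at an unadjusted p under 0.05 and 0 by DESeq2. Their log2 fold changes, RNeasy over RNAqueous, ran from -0.033 for gata1a to 0.26 for alas2. For slc4a1a the value was 0.0090 with an interval of -0.87 to 0.89, and its levels went opposite ways in the runs, with 55.4 CPM for RNeasy and 86.0 CPM for RNAqueous in run 2, and 27.5 CPM for RNeasy and 16.0 CPM for RNAqueous in run 1.

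The counts used leave out a read that overlaps another gene, and this was seen for alas2 and gata2b. Where the overlapping genes lie on opposite strands, the counts on separate strands hold such reads for both genes. The excess over the count that ignores strand gives the number of these reads only. A read that overlaps a gene on the same strand is left out of every count, so the excess cannot show it. gata1a, gata2a and slc4a1a had no excess reads in any library. Whether they lost reads to a gene on the same strand was not tested. alas2 had 0 or 1 excess read in each sorted library, and 691 (RNeasy) and 280 (RNAqueous) in the whole embryos. The same 691 and 280 reads were in excess on ela2l, a gene for a digestive elastase of the pancreas, which is the next protein-coding gene after alas2 in RefSeq. ela2l itself held 0 to 3 reads in each sorted library, and 801 and 328 in the embryos.

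With the shared reads added, the log2 fold change of alas2 was -0.48 in run 2 sorted cells (edgeR adjusted p = 0.170) and -0.71 in run 1 sorted cells over embryos (edgeR adjusted p = 0.136). The deposited counts do not assign these reads to 1 of the 2 genes. As far as these reads go, the embryo level of alas2 lies between the 2 sets of values. The shared reads were many only where ela2l had many reads. The sorted libraries, with 317 to 863 reads on alas2 alone, had 0 or 1 of them. For each read on alas2 alone, the embryos had 1.56 (RNeasy) and 0.409 (RNAqueous) shared reads. The RNeasy embryo had more reads on ela2l alone than the RNAqueous embryo (801 against 328) and fewer on alas2 alone (443 against 684). It had more shared reads (691 against 280). Which gene the shared reads came from was not tested. In neither count was alas2 called higher in sorted cells.

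For gata2b the overlapping gene was si:ch211-157b11.6, and every library had shared reads. They made up 61.0% and 58.6% (RNeasy) and 51.8% and 59.7% (RNAqueous) of the strand sum in run 2 sorted cells, 28.6% (RNeasy) and 27.6% (RNAqueous) in run 1 sorted cells, and 45.8% (RNeasy) and 53.8% (RNAqueous) in the embryos. The neighbour had no read of its own in 7 libraries and 1 read in the RNeasy embryo. With shared reads added, gata2b averaged 12.99 ± 2.7 CPM in run 2 sorted cells, 9.17 ± 3.6 CPM in those of run 1 and 1.39 ± 0.23 CPM in embryos (SD, n = 2 RNA samples each), and stayed higher in sorted cells, with log2 fold changes of 3.18 for run 2 and 2.94 for run 1 (edgeR adjusted p = 1.69e-05 and 0.000522). Its difference between runs was 0.18 with shared reads and -0.55 without them, uncalled in either count.

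**Figure D3:**
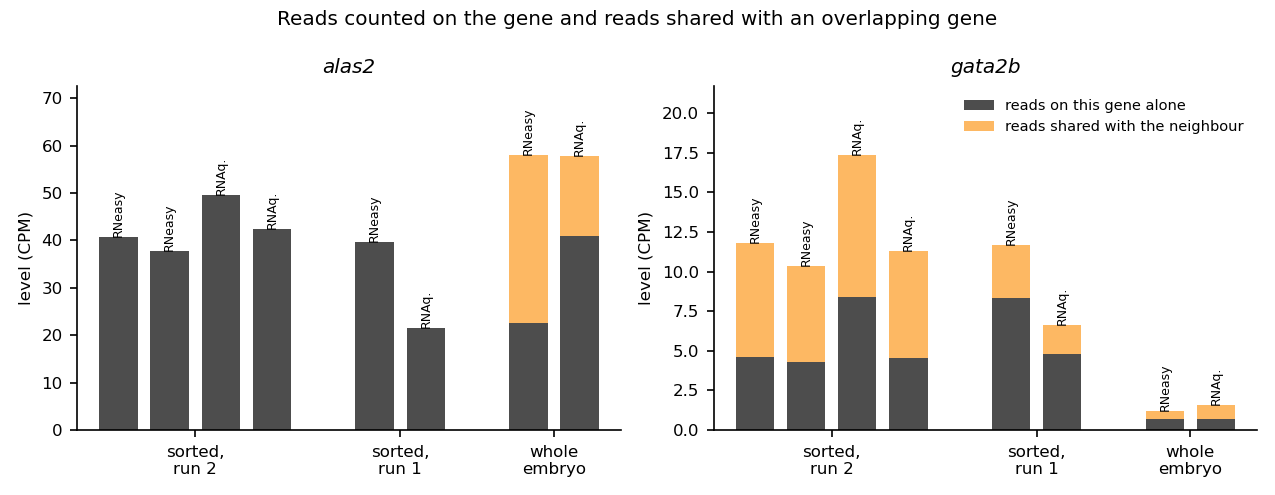
Level (CPM, vertical axis from 0) of alas2 and gata2b in the 8 libraries, as stacked bars of reads counted on the gene alone (dark) and reads shared with an overlapping gene (light), with the kit written on each bar (RNAq. is RNAqueous). alas2 has shared reads in the embryos, where both totals reach about 58.0 CPM, and gata2b has them in every library.

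Genes of the same pathways were read from lists of names, matched to the annotation by symbol. The lists were written with earlier results of these data known, so their counts are a description. Among 11 tested regulators of blood development, 6 were higher and 2 lower in run 2 sorted cells than in embryos. Of all tested genes, 23.5% were higher and 28.2% lower. The median log2 fold change was 1.32 for the 11, against -0.0032 over all genes. myb, a factor of blood progenitors, held 42.0 CPM (RNeasy) and 62.3 CPM (RNAqueous) in run 2 sorted cells, against 14.2 and 11.8 CPM in the embryos. In run 1 sorted cells it held 22.7 and 22.6 CPM and was called higher as well (edgeR adjusted p = 0.0394). zfpm1, the cofactor of Gata1 known as FOG1, held 9.69 and 16.7 CPM in run 2 sorted cells, against 3.02 and 3.72 CPM in the embryos. Its run 1 levels were 4.46 and 3.12 CPM, not called over embryos (edgeR adjusted p = 0.559). Between runs zfpm1 was 2.70-fold higher in run 2 (edgeR adjusted p = 0.0233), a call kept under 9 of 13 alternatives. tal1, which acts with Gata1 in red cells and is also used by spinal neurons, was lower, at 20.9 and 14.9 CPM in run 2 sorted cells against 31.6 and 37.7 CPM in the embryos. lmo2, a partner of Tal1, was at 26.7 and 23.3 CPM in run 2 sorted cells against 14.1 and 18.3 CPM in the embryos and was not called (edgeR adjusted p = 0.110). In run 1 sorted cells lmo2 held 29.7 and 32.7 CPM and was called 2.28-fold higher than in embryos (edgeR adjusted p = 0.0163). In run 1 sorted cells over embryos 2 of 10 tested regulators were higher, near the 17.3% of all tested genes that were. In run 2 sorted cells, 2 of 11 were higher in place of 6 without the RNeasy RNA of run 2, without its RNAqueous RNA, without the RNAqueous embryo and with sorted cells of both runs.

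Most genes of heme synthesis and iron handling were not called. Of 12 tested, 3 were higher and 1 was lower in run 2 sorted cells than in embryos, with a median log2 fold change of -0.010. urod, an enzyme of heme synthesis, was 2.16-fold higher (edgeR adjusted p = 0.0126), and tfr1b, a transferrin receptor gene, was at 0.448 of the embryo level (edgeR adjusted p = 0.00583), while alad, the enzyme after alas2 (edgeR adjusted p = 0.452), and slc11a2, an iron transporter (edgeR adjusted p = 0.677), were not called. The 3 higher genes compare with 23.5% of all genes called higher. Their number by edgeR was 0 without the RNAqueous RNA of run 2, without the RNAqueous embryo and with sorted cells of both runs, and 1 without the RNeasy RNA of run 2. In run 1 sorted cells 2 of the 12 were lower than in embryos, beside the 25.5% of all tested genes called lower.

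Of 8 tested genes of the red cell membrane and its enzymes, 3 were lower in run 2 sorted cells than in embryos and 5 were not called, beside the 28.2% of all genes called lower. The number lower was 1 without the RNeasy RNA of run 2, without its RNAqueous RNA and without the RNAqueous embryo. In run 1 sorted cells 4 of the 8 were lower than in embryos, beside the 25.5% of all tested genes called lower. The median log2 fold change of the 8 was -0.50 in run 2 and -0.77 in run 1. tmod4, a tropomodulin that is also a skeletal muscle gene, was at 0.181 of the embryo level in run 2 sorted cells (edgeR adjusted p = 0.000159). rhag, a membrane glycoprotein, held 82.2 CPM (RNeasy) and 75.6 CPM (RNAqueous) in run 2 sorted cells, against 93.9 and 99.3 CPM in embryos. cahz, a red cell carbonic anhydrase, held 79.9 and 58.9 CPM in run 2 sorted cells, against 95.7 and 108.6 CPM in embryos. blvrb, a biliverdin reductase, held 41.4 and 32.3 CPM in run 2 sorted cells, against 40.2 and 41.2 CPM in embryos. None of rhag, cahz and blvrb was called (edgeR adjusted p = 0.117 to 0.629). The muscle marker ckma was lower too, with 1888 and 1019 CPM in run 2 sorted cells, against 8152 and 5896 CPM in the embryos, and its part in the value of tmod4 was not tested.

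Of 14 globins, the oxygen carriers of the red cell, 8 were matched to the annotation and 5 could be tested between run 2 sorted cells and embryos, while the remaining 3 had few or no reads. hbae3 held 1805 CPM (RNeasy) and 1056 CPM (RNAqueous) in run 2 sorted cells, 2306 CPM (RNeasy) and 5470 CPM (RNAqueous) in run 1 sorted cells, and 1273 CPM (RNeasy) and 1383 CPM (RNAqueous) in the embryos. The highest value was that of the RNAqueous library of run 1, which had the lowest levels of alas2 and slc4a1a. hbae3 was not called between run 2 sorted cells and embryos (edgeR adjusted p = 0.887) and was 3.53-fold higher in run 1 sorted cells than in embryos (edgeR adjusted p = 0.0364). Between runs it was lower in run 2, with a log2 fold change of -1.70 (edgeR adjusted p = 0.0442), opposite to slc4a1a, a call kept under 4 of 13 alternatives and not without the RNAqueous RNA of run 1 (-0.89, edgeR adjusted p = 0.318). hbae1.3 held 384 CPM (RNeasy) and 246 CPM (RNAqueous) in run 2 sorted cells, against 184 and 236 CPM in embryos, and was not called (edgeR adjusted p = 0.188). In run 1 sorted cells it held 360 and 790 CPM, 3.32-fold higher than in embryos (edgeR adjusted p = 0.0186). Of 3 globins tested in run 1 sorted cells over embryos, 2 were higher, beside 17.3% of all tested genes. hbae5 was the globin called lower in run 2 sorted cells than in embryos, and most of its reads were shared with another gene, with 6.50 CPM of its own and 170 CPM with shared reads in run 2 sorted cells, against 32.1 and 403 CPM in embryos. Globin genes have near-identical copies whose reads are not counted when they map to several places, so these levels are lower limits.

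**Figure D4:**
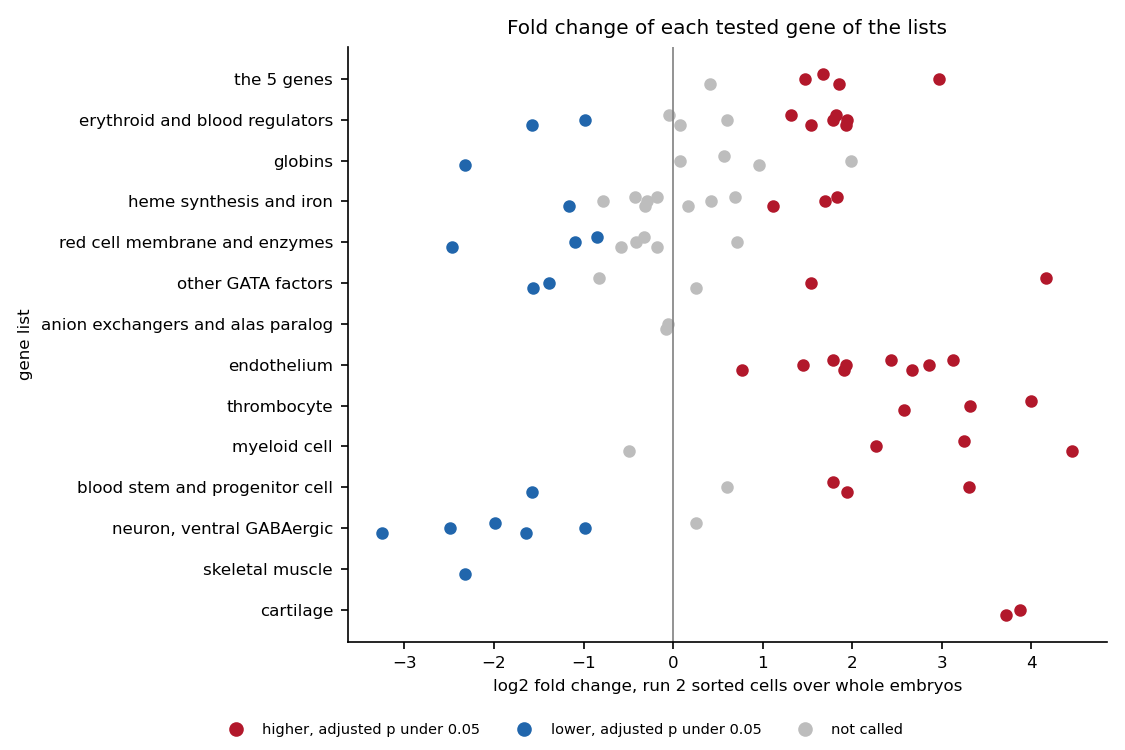
Log2 fold change (horizontal axis) of run 2 sorted cells over whole embryos for each tested gene of the lists (rows), with red for higher and blue for lower at an edgeR adjusted p under 0.05 and grey for genes not called; gata1b and mpl, at 0 in both embryos, are left out. Of the 5 genes 4 are red, of 8 red cell membrane genes and enzymes 3 are blue, and all 9 endothelial genes are red.

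The list of other GATA factors showed no common direction. It also holds trps1 and gatad2b, proteins with related zinc fingers. Of 7 tested genes, 3 were higher and 2 lower in run 2 sorted cells than in embryos, beside 23.5% and 28.2% of all tested genes. The 3 higher were trps1, gatad2b and gata1b. Of these, gata1b had no read in either embryo and passed the filter through sorted cells alone. Both lower genes, gata6 among them, are GATA factors proper. trps1, a GATA type repressor active in cartilage, held 62.7 CPM (RNeasy) and 39.0 CPM (RNAqueous) in run 2 sorted cells, 59.6 and 29.4 CPM in run 1 sorted cells, and 2.25 and 3.36 CPM in embryos, and was 18.0-fold higher in run 2 (edgeR adjusted p = 3.63e-06). gatad2b, a subunit of a chromatin repressor complex, was 2.90-fold higher (edgeR adjusted p = 0.00271), and gata6, a factor of heart and gut, was at 0.338 of the embryo level (edgeR adjusted p = 0.00104). gata3, a factor of lymphocytes, neurons and the inner ear, held 46.4 and 59.4 CPM in run 2 sorted cells, against 32.3 and 54.9 CPM in embryos, and was not called (edgeR adjusted p = 0.487).

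gata1b, the paralog of gata1a, falls outside the rule for naming and was singled out after its values were seen. It had no read in either embryo and held 5.30 CPM (RNeasy) and 8.47 CPM (RNAqueous) in run 2 sorted cells and 2.97 CPM (RNeasy) and 3.25 CPM (RNAqueous) in run 1 sorted cells. Set against the level of 3 reads over both embryos, 0.0828 CPM, it was at least 83.1-fold higher in run 2 sorted cells and at least 37.6-fold higher in run 1 sorted cells. Among paralogs of the other genes, alas1, the alas gene used outside red cells, held 233 and 277 CPM in run 2 sorted cells, against 274 and 237 CPM in embryos, and slc4a3 held 1.19 and 0.786 CPM in run 2 sorted cells, against 0.665 and 1.44 CPM in embryos. Neither was called (edgeR adjusted p = 0.903 and 0.920).

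Genes with the most similar profile over the 8 libraries were sought among 13151 genes, by the root mean square difference of centred log2(CPM + 1) values. The closest to gata1a were slc1a3, rad18, cdc20, aurka and meis1a (differences of 0.08 to 0.10). The closest to gata2a were adam19a, myo9b, fzd8, smarcc1 and kif22 (0.06 to 0.08), to alas2 tnrc6a, meis2, tox4a, meis2b and a gene without a symbol (0.05 to 0.10), and to slc4a1a prrc2c, add1, shkbp1, igf1r and pnpla7a (0.09 to 0.12). gata2b had looser neighbours, with insig1, snai2, loxl1, tamalin and a gene without a symbol at 0.18 to 0.23. Genes under 10 CPM in every library, gata1a and gata2b among them, were not in the search. With a pseudocount of 0.1 in place of 1, all 5 of these genes stayed for gata2a, 4 each for alas2 and slc4a1a, 2 for gata1a and 0 for gata2b. With reads shared with overlapping genes added, all 5 stayed for gata1a, gata2a and slc4a1a, 1 for gata2b and 0 for alas2. The libraries share RNA samples and runs, so this likeness is a description over 8 libraries.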

How the data were processed

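RNA was made into full-length cDNA from polyadenylated RNA (SMART-seq v4) and tagmented (Nextera XT), a protocol that keeps no strand. With STAR the authors mapped the reads to GRCz10, and they deposited raw counts per gene, with 1 column that ignores strand and 1 for each strand. Reads on several loci are not in these counts. The column that ignores strand was used as counts, with the strand columns summed as an alternative. The 4 rows of reads not counted on a gene, which include reads that overlap more than 1 gene, were left out of library sizes. They held 23.3% to 30.3% of the reads of a library.

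The members and lists were chosen with earlier results of these data known. Of 35117 genes, 27000 have a symbol in the name table. The RNeasy library of run 1 has a sample number of 2 in its title and of 1 in its source name, and was taken as sample 1. That sample 1 is run 1 and sample 2 is run 2 is from the study's methods.

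Libraries a and b were summed per RNA. Tests were run by quasi-likelihood in edgeR 4.0.16 (TMM, filterByExpr, Benjamini-Hochberg at 0.05) in R 4.3.3, tested on simulated data with 200 genes changed 4-fold. Sorted cells were compared with embryos without a covariate, runs with kit and kits with run as a covariate. Each standard error is the fold change over the root of F. Alternatives were DESeq2 version 1.42.0, its size factors, no filter or a minimum count of 50, strand columns summed, kit as a block, all 6 RNA samples in 1 fit, sorted cells of both runs, no covariate, library a or b alone, each RNA left out in turn and, chosen after seeing the data, total counts without TMM and closest profiles with strand columns summed. Tables were made in Python 3.11.15 (pandas 2.3.3, scipy 1.17.1) and figures with matplotlib 3.10.9.

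Named genes were the 5 genes, up to 4 per list by highest mean CPM, and the 5 closest profiles to each gene, of genes averaging at least 1 CPM that reached 10 CPM in 1 library. Promoter motifs and coordinates were not analysed here, since the gene table was of another build (GRCz12tu), which was used for names and neighbours.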

Additional observations from a re-analysis of the deposited data

Results flagged for a closer look

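In run 2 sorted cells 1 of 4 libraries stood apart for gata2b. The RNAqueous library a, at 8.37 CPM, was separated from the next library by 0.924 of the range of the 4 libraries, above Dixon's 95% critical value, while the other 3 lay between 4.30 and 4.61 CPM. The rule marks about 5% of groups of independent samples by chance, but these 4 libraries come from 2 RNA samples, so that share does not hold here, and 5 genes were looked at. With reads shared with si:ch211-157b11.6 added, the library held 17.4 CPM, against 11.8 and 10.4 CPM (RNeasy) and 11.3 CPM (RNAqueous library b), and its gap was 0.796 of the range, below the critical value.

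The difference of slc4a1a from whole embryos passed the test for a difference between runs in the edgeR fit, a call kept under 8 of 13 alternatives, with adjusted p-values up to 0.366, and not by DESeq2 (adjusted p = 0.0723). Both sorted groups were set against the same embryos, so the difference between these effects is that between the sorted groups, a log2 fold change of 1.38 (edgeR adjusted p = 0.0319), with both run 2 RNA samples above both run 1 RNA samples. What in the runs the difference follows was not tested.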

How the results depend on the processing

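Against whole embryos, the log2 fold changes of gata1a, gata2a and gata2b stayed above 0 in both sorted groups under every alternative that was run. In run 1 sorted cells, gata1a and gata2a were each called under only 8 of 12 alternatives. In run 2 sorted cells over embryos, the log2 fold change of alas2 turned to -0.48 with strand columns summed, and that of slc4a1a was no longer called with sorted cells of both runs (0.86). In run 1 sorted cells over embryos, total counts without TMM, which shifted the median of all genes to -0.27 and the share of higher calls to 31.3% against 40.5%, ended the calls of gata1a (1.08) and gata2a (0.92) and gave -0.061 for alas2 and -0.20 for slc4a1a. The value of slc4a1a there, which was near 0 and uncalled throughout, was also -0.020 without a filter, -0.062 with a minimum count of 50 and -0.013 with kit as a replicate block, and that of alas2 was -0.71 with strand columns summed. Kit was the number shared by sorted cells and embryos, with 1 pair per kit and no shared animal, and this block gave 11718 and 7931 calls for run 2 and run 1 over embryos, against 11045 and 8670, changed no call of the 5 genes, and added a call for cahz (-0.61, edgeR adjusted p = 0.0425).

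Between runs, 2149 genes were called, against 1005 with DESeq2, 1376 with total counts, 1414 without the covariate and 1137 with library b alone. The log2 fold change of slc4a1a lost its call with DESeq2 (1.34), strand columns summed (1.36) and library b alone (1.28), and that of gata2b turned to 0.18 with strand columns summed. Between kits, 23 genes were called, against 11 with DESeq2, 11 with a minimum count of 50, 9 with total counts, 7 with library b alone and 0 by edgeR without the covariate, where 175 had an unadjusted p under 0.05. Values near 0 changed sign there without a call, to 0.013 for gata1a with total counts, to -0.0079 with DESeq2, -0.0094 with its size factors, -0.037 with a minimum count of 50, -0.21 without the covariate and -0.0088 with library b alone for slc4a1a, and to -0.0024 with DESeq2 size factors, -0.031 with a minimum count of 50 and -0.12 with library a alone for gata2b.

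With each RNA left out in turn, calls in run 2 sorted cells over embryos numbered 5572 to 10466, between runs 331 (without the RNAqueous RNA of run 2) to 4867 (without the RNeasy RNA of run 1), and between kits 1 to 762 (without the RNAqueous RNA of run 2). Log2 fold changes then ranged from 1.19 to 1.74 for slc4a1a in run 2 over embryos, and in run 1 over embryos from 1.07 to 1.55 for gata1a, -0.19 to 0.49 for alas2, -0.28 to 0.27 for slc4a1a and 0.97 to 1.29 for gata2a. Between runs they ranged from -0.10 to 0.50 for alas2 and 1.11 to 1.64 for slc4a1a, and between kits from -0.28 to 0.17 for gata1a, -0.048 to 0.56 for alas2, -0.88 to 1.04 for slc4a1a, -0.29 to 0.56 for gata2a and -0.53 to 0.57 for gata2b. In these fits a lone sample is assumed to vary like the others.

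Of the list genes in run 2 over embryos, values near 0 turned for hbae3 (-0.0027 with library b alone, -0.39 to 0.47 with an RNA left out), slc11a2 (-0.017 with sorted cells of both runs, -0.13 to 0.53), blvrb (0.19 with sorted cells of both runs, -0.40 to 0.045), alas1 (-0.27 to 0.20) and slc4a3 (0.46 with library b alone, -0.44 to 0.41). With strand columns summed, the mean level of alas2 in embryos was 57.9 CPM in place of 31.8 CPM, and that of gata2b was 12.99 CPM in place of 5.64 CPM in run 2 sorted cells, 9.17 CPM in place of 6.59 CPM in run 1 sorted cells and 1.39 CPM in place of 0.693 CPM in embryos. Depth limited gata1a in run 1 sorted cells and embryos and gata2b in every library but the RNAqueous library a of run 2, which rest on under 100 reads each, and with 2 RNA samples a group the cause of the changes above was not tested.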

Other observations

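Thrombocytes, the clotting cells of fish, share gata1a and other early regulators with red cells as a matter of textbook background, and genes listed as their markers were read too. Which cells of the sorted mixture the RNA of these genes came from was not tested. All 4 matched genes were higher in run 2 sorted cells than in whole embryos, beside 23.5% of all tested genes. In run 1 sorted cells 3 were tested and all 3 were higher, beside 17.3% of all tested genes. With few embryo reads, itga2b and gp1bb passed the filter on low counts only with the reads of sorted cells, as did mpl in run 2. These counts were thus partly fixed by the filter and say little about the set. Most of the summed level of the 4 was f13a1b. f13a1b, a gene for a subunit of coagulation factor XIII, held 153 CPM (RNeasy) and 180 CPM (RNAqueous) in run 2 sorted cells, 117 and 86.1 CPM in run 1 sorted cells, and 12.9 and 19.9 CPM in embryos. itga2b, the integrin chain known as CD41, held 1.66 and 2.15 CPM in run 2 sorted cells, against 0.0512 and 0.180 CPM in embryos. These embryo values are at or under the level of 3 reads in those libraries. gp1bb, a chain of the von Willebrand factor receptor, held 4.80 and 2.66 CPM in run 2 sorted cells, against 0.870 and 0.2999 CPM in embryos. mpl, the thrombopoietin receptor, had no read in either embryo, and was at least 17.9-fold higher in run 2 sorted cells, with 1.19 and 1.78 CPM. Without the RNeasy RNA of run 2, 3 of the 4 were called, and with a minimum count of 50 only 2 could be tested, both called.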
